A study of Sus scrofa with 9 samples.

Results

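The genes described here encode the cytokinesis machinery, the proteins that pinch a dividing cell into separate daughters. They were followed in left ventricular tissue of wild type, untreated pigs on postnatal day 0 (newborn), day 7 and day 15, with 3 RNA sequencing libraries per age and 9 in all. The 10 genes were chosen by name as regulators of the contractile ring, of centralspindlin and of RhoA: ANLN, ECT2, RACGAP1, KIF23, PRC1, AURKB, CIT, KIF14, IQGAP3 and ARHGEF2. Of the 22629 rows of the table, 9 carry one of these symbols, and PRC1 was found under its Ensembl identifier, ENSSSCG00000037307, so 10 genes were measured. The labels do not tie the 3 libraries of an age to different animals, so p-values measure the spread between these libraries, which may be technical.

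At the end of mitosis, microtubules of the central spindle are bundled by PRC1 and by centralspindlin, a complex of the kinesin KIF23 and the GTPase-activating protein RACGAP1. Centralspindlin recruits ECT2, which loads RhoA with GTP at the cell equator, and RhoA drives assembly of an actin and myosin ring that anillin (ANLN) holds to the membrane. In the mammalian heart, muscle cells replicate DNA and divide nuclei shortly after birth, and many of them omit cytokinesis and keep more than 1 nucleus. Transcripts were measured here, and nuclei per cell were not. In bulk tissue, a change in the number of dividing cells and a change in transcript per dividing cell cannot be told apart.

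The values are TPM, each gene's length-normalised share of the transcripts of its library, so levels can be compared between genes but sequencing depth is unknown. The row ENSSSCG00000032277 alone held 24.0% (newborn replicate 6) to 46.0% (day 15 replicate 1) of the TPM of a library. A larger share for that row lowers the TPM of every other gene in the same library, which limits comparisons between libraries. Between 11290 and 12164 genes reached 1 TPM in a library. The tissue label was checked on 10 heart muscle markers, of which 8 were in the table, and these summed to between 32593 and 43950 TPM in every library. Newborn replicate 5 stood apart from newborn replicates 4 and 6 in the genes of this report: the 9 members other than ARHGEF2 summed to 67.5 TPM in replicate 5, against 15.1 and 18.6 TPM in replicates 4 and 6. The members' comparisons with day 0, and the counts of the gene lists at day 7, are therefore given with and without that library.

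All 10 members reached 1 TPM in at least 3 libraries, the minimum for testing. CIT and KIF14 did so in 5 libraries each, none of them newborn, so these genes entered the test only through the ages at which they were high. Counts of called members are therefore also given for the other 8, which reached 1 TPM in at least 1 newborn library. Of these 8, IQGAP3 (0.828, 3.02 and 0.737 TPM in newborn replicates 4, 5 and 6) and ECT2 (0.918, 2.42 and 1.15 TPM) also met the minimum only with older libraries. The counts of the 8 thus keep part of that limit. Averaged over the 9 libraries, ARHGEF2 was the most abundant at 41.2 TPM, followed by AURKB at 16.4, PRC1 at 14.5, RACGAP1 at 7.17, ANLN at 6.24, KIF23 at 4.46, IQGAP3 at 3.78, ECT2 at 2.32, CIT at 1.39 and KIF14 at 1.35 TPM. At day 7 the libraries of neighbours in this order overlapped for AURKB and PRC1, for RACGAP1 and ANLN, for KIF23 and IQGAP3, and for CIT and KIF14. The ranges of ARHGEF2 (45.1 to 64.5 TPM) and ECT2 (3.02 to 3.50 TPM) at day 7 overlapped with those of no other member.

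**Figure D1:**
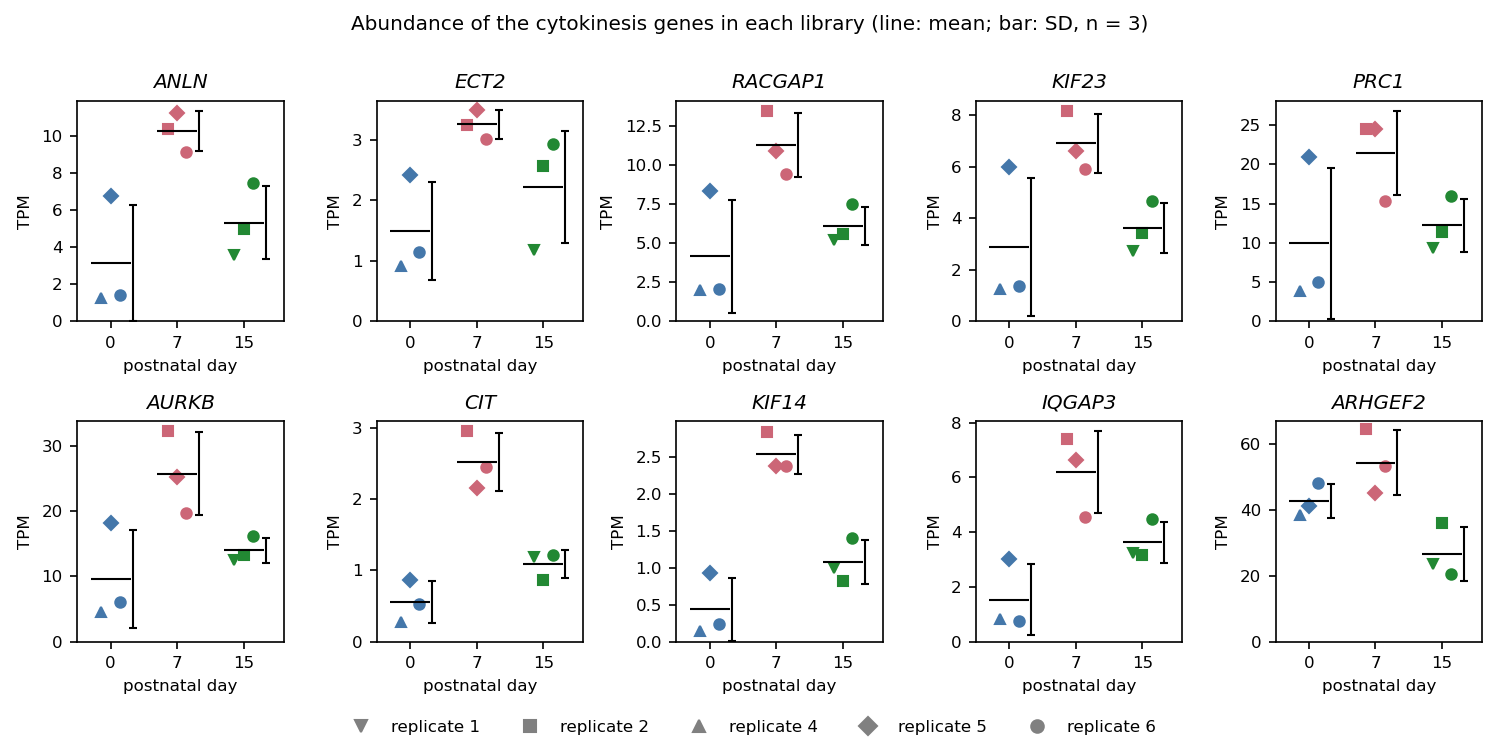
TPM (vertical axis, a separate scale per gene) of the 10 cytokinesis genes on postnatal days 0, 7 and 15; each point is 1 library, its shape the replicate number, with the mean as a line and the SD as a bar (n = 3). The newborn diamond, replicate 5, lies above the other newborn points for every gene but ARHGEF2, and the day 7 points of 7 genes lie above all newborn points.

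The first comparison asked how these genes changed over the first week. From day 0 to day 7, 7 of the 10 rose and 0 fell (limma, adjusted p under 0.05), where 7.67% of the 12268 genes tested rose and 8.88% fell. Leaving CIT and KIF14 aside, 5 of the other 8 rose. After TPM were rescaled without the most abundant genes, 2355 genes rose and 1236 fell, in place of 941 and 1090. The 7 were ANLN, RACGAP1, KIF23, AURKB, CIT, KIF14 and IQGAP3. ECT2, PRC1 and ARHGEF2 did not pass, and 9 of the 10 had an unadjusted p under 0.05 with a positive difference, as in 15.4% of all genes. The median difference of the members was 1.35 on the log2(TPM + 1) scale, against -0.04 over all genes tested. In 7 members every day 7 library lay above every newborn library, as in 17.6% of all genes.

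Centralspindlin was low in 2 of the newborn libraries. RACGAP1, its GTPase-activating subunit, stood at 2.01, 8.36 and 2.08 TPM in newborn replicates 4, 5 and 6, at 13.5, 10.9 and 9.41 TPM in day 7 replicates 2, 5 and 6, and at 5.24, 5.57 and 7.48 TPM in day 15 replicates 1, 2 and 6. The day 7 libraries were thus the highest of the 3 ages, with no overlap with either. The mean went from 4.15 ± 3.65 TPM to 11.3 ± 2.05 TPM (mean ± SD, n = 3), a log2 fold change of 1.46 ± 0.36 (SE, limma adjusted p = 0.0206). KIF23, the kinesin of the complex, had 1.27, 5.98 and 1.38 TPM in newborns, 8.15, 6.62 and 5.93 TPM at day 7, and 2.74, 3.43 and 4.68 TPM at day 15, libraries in the same order. Newborn replicate 5 reached the day 7 range for KIF23, while the other newborn libraries lay below every older one. Its log2 fold change to day 7 was 1.23 ± 0.36 (SE, limma adjusted p = 0.0377).

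ECT2, the exchange factor that activates RhoA at the equator, had 0.918, 2.42 and 1.15 TPM in the newborn libraries, 3.24, 3.50 and 3.02 TPM at day 7 and 1.18, 2.56 and 2.93 TPM at day 15. Every day 7 library was above every newborn one, but the difference of 0.81 ± 0.26 (SE, log2 scale) narrowly missed the threshold (limma adjusted p = 0.0507; 95% interval 0.25 to 1.38). It passed in 11 of the 20 alternative analyses in which ECT2 was tested.

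PRC1, which crosslinks antiparallel microtubules of the central spindle, had 3.85, 21.0 and 4.97 TPM in the newborn libraries, 24.5, 24.5 and 15.3 TPM at day 7, and 9.38, 11.4 and 16.0 TPM at day 15. Here newborn replicate 5 exceeded a day 7 library, and the difference of 1.35 ± 0.45 (SE) did not pass (limma adjusted p = 0.058; 95% interval 0.37 to 2.33). KIF14, a kinesin that binds PRC1 and brings citron kinase to the midzone, had 0.150, 0.926 and 0.235 TPM in newborns, 2.85, 2.39 and 2.39 TPM at day 7, and 1.00, 0.821 and 1.41 TPM at day 15. Its mean rose 5.82-fold to day 7 (13.2-fold without newborn replicate 5), the steepest ratio of the 10 either way, with a log2 fold change of 1.34 ± 0.22 (SE, limma adjusted p = 0.00462). CIT, citron kinase, which stabilises the late ring and midbody, had 0.281, 0.862 and 0.529 TPM in newborns, 2.96, 2.16 and 2.45 TPM at day 7, and 1.19, 0.865 and 1.21 TPM at day 15. Its mean rose 4.53-fold (1.19 ± 0.19 SE on the log2 scale, limma adjusted p = 0.0045). For both genes even newborn replicate 5 lay far under the day 7 libraries, at 0.364 of the day 7 mean for KIF14 and 0.341 for CIT. The pseudocount of 1 TPM shrinks the log2 fold changes of these low genes.

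AURKB, the kinase of the chromosomal passenger complex that licenses central spindle assembly, had 4.50, 18.2 and 6.08 TPM in newborns, 32.3, 25.3 and 19.6 TPM at day 7, and 12.4, 13.3 and 16.2 TPM at day 15. It rose to day 7 by 1.53 ± 0.37 (SE, log2 scale, limma adjusted p = 0.0191).

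ANLN, the ring scaffold, had 1.28, 6.77 and 1.40 TPM in newborns, 10.4, 11.3 and 9.14 TPM at day 7, and 3.56, 4.95 and 7.45 TPM at day 15. Its rise of 1.68 ± 0.39 (SE, limma adjusted p = 0.0167) was the largest of the 10 on the log2(TPM + 1) scale, and its mean TPM rose 3.25-fold (7.65-fold without newborn replicate 5). IQGAP3, an actin-binding scaffold of dividing cells, had 0.828, 3.02 and 0.737 TPM in newborns, 7.41, 6.65 and 4.55 TPM at day 7, and 3.23, 3.16 and 4.49 TPM at day 15. It rose by 1.60 ± 0.30 (SE, limma adjusted p = 0.00753), 4.06-fold in mean TPM (7.92-fold without newborn replicate 5). Both day 7 and day 15 libraries of IQGAP3 lay above all newborn ones.

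ARHGEF2, the microtubule-bound RhoA exchange factor also called GEF-H1, followed another course. It had 38.5, 41.0 and 48.2 TPM in newborns, 64.5, 45.1 and 53.3 TPM at day 7, and 23.4, 36.0 and 20.5 TPM at day 15, libraries in the order given above. The newborn and day 7 libraries overlapped, and the difference of 0.33 did not pass (limma adjusted p = 0.302; 95% interval -0.15 to 0.82). Newborn replicate 5 lay between the other newborn libraries for this gene. As a description over the 9 libraries, which share the age groups, the log2 values of ARHGEF2 had a Pearson correlation of 0.245 with the mean profile of the other members, while the other 9 genes had 0.911 to 0.981 against the rest.

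**Figure D2:**
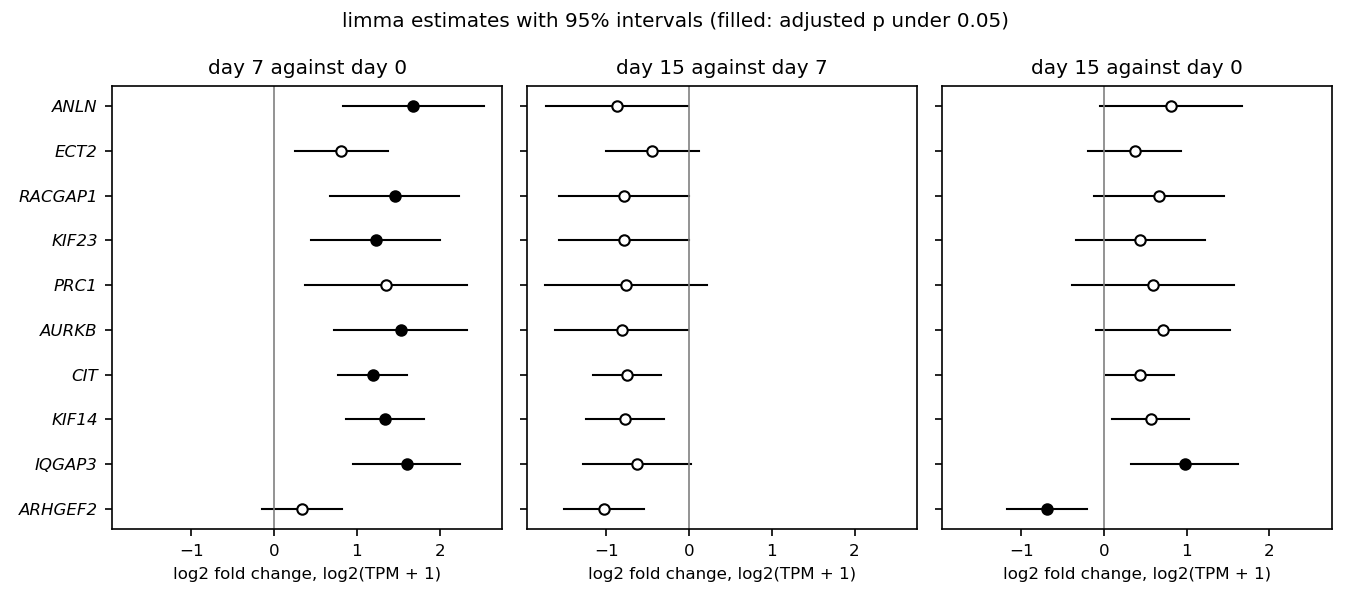
Log2 fold change on the log2(TPM + 1) scale (horizontal axis) of each gene in the 3 pairwise comparisons of ages, with 95% intervals from limma; filled points passed an adjusted p of 0.05. In the first week 7 of 10 are filled, in the second 0, and over both IQGAP3 (higher) and ARHGEF2 (lower) are filled.

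Newborn replicate 5 widened the newborn spread. It held 1.63 times (CIT) to 4.83 times (ANLN) the higher of the other newborn libraries in the 9 members other than ARHGEF2. That library was picked on the values of these same genes, so leaving it out was bound to raise their differences from day 0. P-values without it, here and below, are therefore only descriptive. Without newborn replicate 5, 9 of the 10 rose from day 0 to day 7, all but ARHGEF2, with a median log2 fold change of 1.87, and 10.3% of all genes rose. Leaving CIT and KIF14 aside, 7 of the other 8 did. Of the members not yet given, the ratio of day 7 to newborn means went from 2.71 to 5.50 for RACGAP1, from 2.40 to 5.21 for KIF23, from 2.16 to 4.86 for PRC1 and from 2.68 to 4.86 for AURKB. ANLN then rose by 2.26 ± 0.25 (SE, limma adjusted p = 3.24e-04), PRC1 by 2.03 ± 0.27 (limma adjusted p = 7.25e-04) and ECT2 by 1.06 ± 0.25 (limma adjusted p = 0.0127). Leaving out a different newborn library left 3 calls without replicate 4 and 3 without replicate 6. Rises over all genes then went from 941 to 226 and 196. They went to 500, 478 and 513 when day 7 replicates 2, 5 and 6 were left out in turn. The cause was not tested. ANLN, for instance, then had limma adjusted p = 0.071 and 0.0881. The calls of RACGAP1, AURKB and KIF23 ended when newborn replicate 4 was left out (limma adjusted p = 0.0843, 0.0776 and 0.138), when newborn replicate 6 was (0.104, 0.095 and 0.163), and when day 7 replicate 2 was (0.0638, 0.062 and 0.105). That of KIF23 ended also without day 7 replicate 5 or 6 (limma adjusted p = 0.0661 and 0.0775). With no filter on low genes, ANLN, RACGAP1, AURKB and KIF23 had limma adjusted p = 0.0575, 0.0641, 0.0604 and 0.0984, and KIF23 had 0.0568 in a robust fit. CIT, KIF14 and IQGAP3 passed in each of the 20 alternative analyses in which they were tested, with limma adjusted p of at most 0.0425, 0.0343 and 0.0465. For CIT and KIF14 this carries the limit of their entry into the test, except in the analysis with no filter, where every gene was kept. Among newborns IQGAP3 reached 1 TPM in replicate 5 only (0.828, 3.02 and 0.737 TPM in replicates 4, 5 and 6), so it too met the filter through the older ages.

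**Figure D3:**
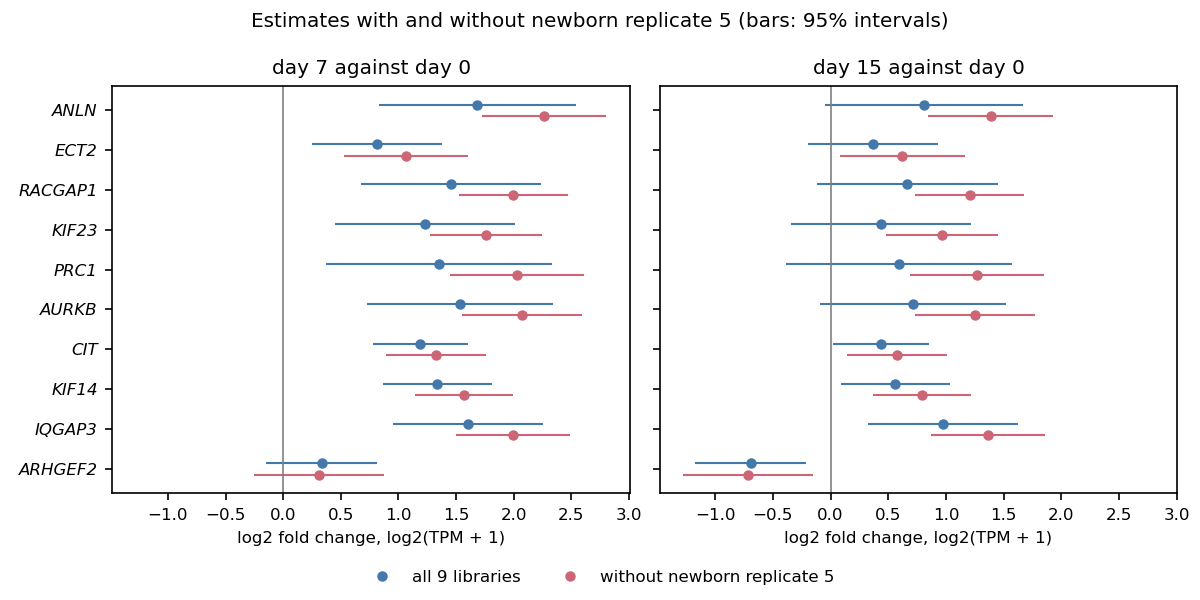
Log2 fold change (horizontal axis) against day 0 of each gene, for day 7 (left) and day 15 (right), with all 9 libraries and without newborn replicate 5; bars are 95% intervals from limma. Without that library the estimates of the 9 genes other than ARHGEF2 move up in both panels, ANLN from 1.68 to 2.26 at day 7.

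The second comparison asked what followed between day 7 and day 15. No member passed (0 of 10 by limma, with 7 at an unadjusted p under 0.05, all lower at day 15, as in 11.0% of all genes), where 0.0408% of all genes rose and 0.130% fell. The median difference was -0.78, against -0.15 over all genes. In 9 of the 10, all but PRC1, every day 15 library lay below every day 7 library, as in 17.9% of all genes. Mean TPM at day 15 ranged from 0.424 of the day 7 mean for KIF14 to 0.683 for ECT2. CIT averaged 2.53 ± 0.404 TPM on day 7 and 1.09 ± 0.195 TPM on day 15, a difference of -0.75 ± 0.19 (SE, limma adjusted p = 0.16). ANLN averaged 10.3 ± 1.06 and 5.32 ± 1.97 TPM, a difference of -0.87 ± 0.39 (SE, limma adjusted p = 0.388). The lowest p belonged to ARHGEF2, with 54.3 ± 9.75 and 26.6 ± 8.25 TPM on the same days and a difference of -1.03 ± 0.22 (SE, limma adjusted p = 0.104). With estimated library weights, CIT, KIF14 and ARHGEF2 passed (limma adjusted p = 0.0142, 0.0354 and 0.00283), all lower at day 15, and 8.90% of all genes fell. This comparison shares its day 7 libraries with the first, so a high day 7 value enters both with opposite sign.

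Over the 2 weeks together, IQGAP3 rose and ARHGEF2 fell, while 5.53% of all genes rose and 18.4% fell. That excess of falls depends on the scaling: 678 genes rose and 2255 fell as deposited, against 1912 and 1889 after median-of-ratios scaling, 1801 and 1757 after rescaling, and 1631 and 2137 after quantile normalization. IQGAP3 averaged 1.53 ± 1.29 TPM in newborns and 3.63 ± 0.746 TPM on day 15 (0.97 ± 0.30 SE, limma adjusted p = 0.0344). That call ended when newborn replicate 4 or 6 was left out (limma adjusted p = 0.115 and 0.159), when day 15 replicate 1 or 6 was (0.0581 and 0.113), with a pseudocount of 5 TPM (0.0526) and without the filter (0.088). ARHGEF2 had 42.6 ± 5.07 and 26.6 ± 8.25 TPM (-0.69 ± 0.22 SE, limma adjusted p = 0.0407). That call was lost in 12 of 21 alternative analyses, among them median-of-ratios scaling, quantile normalization and rescaled TPM (limma adjusted p = 0.0998, 0.135 and 0.0892) and the fits without newborn replicates 4, 5 or 6 (0.0668, 0.0597 and 0.161), day 7 replicate 6 (0.0503) or day 15 replicates 1 or 6 (0.1 and 0.164). Day 15 libraries lay above all newborn libraries for CIT and IQGAP3, as in 9.45% of all genes, and below them for ARHGEF2, as in 30.5%. The other 8 members did not pass, with day 15 means of 1.23 (PRC1) to 2.47 (KIF14) times the newborn means, or 2.15 (ECT2) to 5.60 (KIF14) times without newborn replicate 5. CIT and KIF14 did pass, both higher at day 15, after median-of-ratios scaling (limma adjusted p = 0.0489 and 0.0387) and after rescaling (0.0432 and 0.0382). Without newborn replicate 5, 7 members rose from day 0 to day 15 and 0 fell, among them PRC1 (1.27, limma adjusted p = 0.00732) and RACGAP1 (1.21, limma adjusted p = 0.0037). Of all genes, 7.90% then rose. Leaving CIT and KIF14 aside, 6 of the other 8 rose. With library weights all 10 members were called, as were 43.0% of all genes.

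An F test over the 3 ages called 7 of the 10 members, where 22.0% of all genes were called. These were ANLN, RACGAP1, AURKB, CIT, KIF14, IQGAP3 and ARHGEF2. Leaving CIT and KIF14 aside, the F test called 5 of the other 8. Without newborn replicate 5 it called all 8, and 2948 of all genes in place of 2705. The change of the first week minus that of the second was positive in all 10 members, with a median of 2.11 and an unadjusted p under 0.05 in each, as in 12.7% of all genes. It passed for CIT (1.94 ± 0.33 SE, limma adjusted p = 0.0252) and KIF14 (2.11 ± 0.37 SE, limma adjusted p = 0.0261), where 1.53% of all genes passed with a positive sign. These are the 2 members with no newborn library at 1 TPM, and 0 of the other 8 passed (limma, all 8 at an unadjusted p under 0.05). Over all genes 188 passed with a positive and 48 with a negative sign, against 303 and 280 after median-of-ratios scaling. Without newborn replicate 5 it passed for 9 members (7 of the other 8), where 4.83% of all genes passed with a positive sign. CIT and KIF14 each missed the threshold when newborn replicate 4 was left out (limma adjusted p = 0.0512 and 0.0617), newborn replicate 6 (0.0647 and 0.0659), day 7 replicate 2 (0.115 and 0.12) or day 7 replicate 6 (0.0858 for both). KIF14 missed it also without day 7 replicate 5 (0.0571), with a pseudocount of 0.1 TPM (0.0537) and without the filter (limma adjusted p = 0.0566).

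Cytokinesis genes are transcribed late in the cell cycle with other mitotic genes, so the members were set against 17 genes of mitotic entry, spindle and kinetochore. The mean log2(TPM + 1) of these 17 was 1.55, 2.95 and 1.73 in newborn replicates 4, 5 and 6, 3.32, 3.17 and 3.01 at day 7, and 2.21, 2.48 and 2.80 at day 15. Newborn replicate 5 was thus high for mitotic genes in general. Members were then expressed as their own log2(TPM + 1) minus this mean, a description with no test. IQGAP3 stood at -0.68, -0.95 and -0.93 in the newborn libraries, -0.25, -0.23 and -0.54 at day 7, and -0.13, -0.42 and -0.34 at day 15. All 6 older libraries were therefore above all 3 newborn ones, replicate 5 included. ANLN stood at -0.36, 0.01 and -0.46 at day 0 and at 0.19, 0.45 and 0.33 at day 7, and overlapped with both at day 15.

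RACGAP1 (0.04, 0.27 and -0.10, then 0.54, 0.41 and 0.37) and AURKB (0.91, 1.31 and 1.10, then 1.74, 1.55 and 1.36) also lay higher at day 7 than in any newborn library relative to the mitosis genes. ECT2 did not, with a mean of -0.80 ± 0.32 (SD, n = 3) at day 0 and -1.08 ± 0.13 at day 7, nor did KIF23, PRC1, CIT, KIF14 and ARHGEF2, whose libraries overlapped. With a pseudocount of 0.1 TPM in place of 1, IQGAP3, ANLN and RACGAP1 kept this separation, AURKB overlapped, and KIF14 separated, at -2.86, -2.67 and -2.70 at day 0 and -1.58, -1.65 and -1.48 at day 7. The placing of AURKB and KIF14 therefore depends on the pseudocount.

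The reference matters too. Set against 19 DNA replication genes in place of the mitosis genes, ANLN, RACGAP1 and AURKB overlapped between day 0 and day 7 with either pseudocount. RACGAP1 then stood at -0.38, 0.25 and -0.62 in newborns and 0.14, 0.13 and 0.02 at day 7, so newborn replicate 5 was above every day 7 library. IQGAP3 lay higher at days 7 and 15 than in any newborn library against this reference as well, at -1.10, -0.97 and -1.44, then -0.65, -0.51 and -0.89, then -0.45, -0.62 and -0.27. ECT2 and ARHGEF2 lay lower at day 7 than in any newborn library, ECT2 only with the pseudocount of 1 TPM. CIT and KIF14 lay higher only with that of 0.1 TPM.

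**Figure D4:**
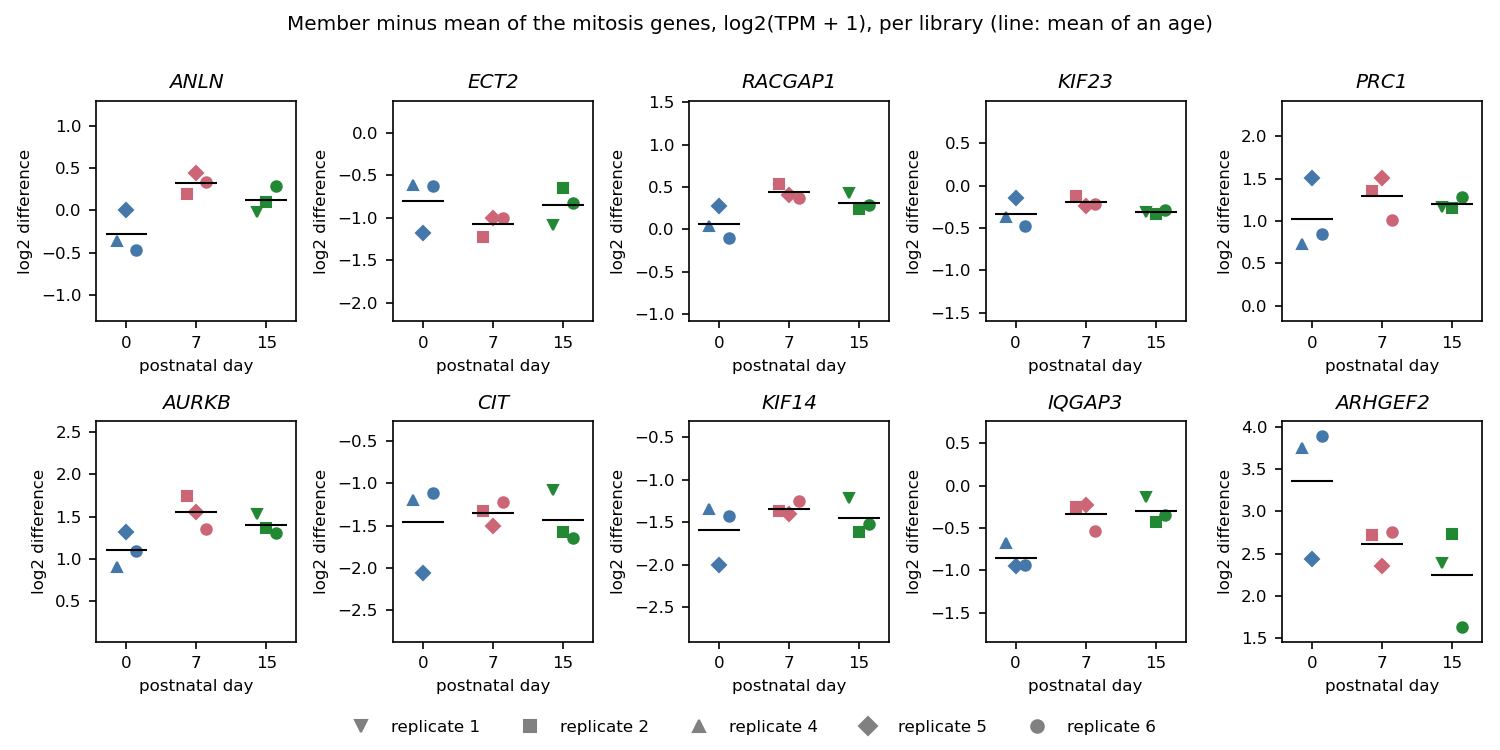
Log2(TPM + 1) of each gene minus the mean over 17 mitosis genes (vertical axis, the same span of log2 units in each panel) by postnatal day; points are libraries, shapes replicate numbers, lines the mean of an age. For IQGAP3 the day 7 and day 15 points lie above the 3 newborn points.

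Other genes of the same process were described from lists of fixed names. Of 9 further genes of the passenger complex, midzone and midbody, 8 rose from day 0 to day 7 and 0 fell, median 1.23, where 7.67% of all genes rose. Among them were INCENP, the scaffold of the passenger complex (2.64 ± 1.89 to 7.00 ± 2.09 TPM, 1.23, limma adjusted p = 0.0208), its subunit CDCA8, or borealin (1.34), the midzone kinesin KIF4A (1.27 ± 0.876 to 3.97 ± 0.76 TPM, 1.18) and SHCBP1, a partner of centralspindlin (1.51). The gene with the highest mean over the 9 libraries, BIRC5, or survivin, rose from 6.73 ± 5.45 to 16.3 ± 3.68 TPM (1.36). The member of that list that did not pass was PLK1, the mitotic kinase, at 7.46 ± 4.88 and 13.1 ± 4.55 TPM (named after its values were seen). From day 7 to day 15, 0 of the 9 passed (limma), and 5 had an unadjusted p under 0.05, all lower at day 15, as in 11.0% of all genes. All 9 had day 15 libraries below every day 7 library, as in 17.9% of all genes. The 8 calls of the first week became 1 and 0 when newborn replicates 4 and 6 were left out in turn, 2, 5 and 3 when day 7 replicates 2, 5 and 6 were, 2 without the filter on low genes, and 9 without newborn replicate 5.

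Genes of the general machinery that non-dividing cells share are given for comparison. Of 18 listed genes of RhoA, its effectors and the actomyosin ring, 14 were in the table and 12 were tested. Of these, 1 rose and 0 fell to day 7, median 0.08, a share close to that of all genes (7.67% rose). That gene, IQGAP1, a relative of IQGAP3, averaged 16.6 ± 0.682 TPM in newborns and 24.0 ± 1.05 TPM on day 7 (0.51, limma adjusted p = 0.0445). RHOA itself had 69.1 ± 7.88, 66.9 ± 11.3 and 55.7 ± 8.10 TPM at days 0, 7 and 15, and the actin-severing CFL1, named for its mean over all libraries, 315 ± 34.2, 268 ± 48.7 and 185 ± 23.7 TPM. The formin DIAPH3, at 0.251 ± 0.244, 1.51 ± 0.59 and 0.535 ± 0.0716 TPM, was too low to be tested (RHOA and DIAPH3 were named after their values were seen). The count of rises in this list was 0 when any newborn library, any day 7 library or day 15 replicate 6 was left out (without newborn replicate 5, 1 gene fell), and 4 after TPM were rescaled without the most abundant genes.

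Of 9 septins, which form filaments at the cleavage site, 0 passed from day 0 to day 7 (limma, 1 at an unadjusted p under 0.05, lower), median 0.11, and 0 without newborn replicate 5. The most abundant, SEPT2, had 77.2 ± 10.4, 79.5 ± 10.8 and 66.0 ± 7.37 TPM. Of 14 tested genes of abscission, the final cut made by the ESCRT machinery, 1 rose and 0 fell, median 0.00, again close to the share of all genes. This was ZFYVE26 (1.18 ± 0.277 to 2.50 ± 0.683 TPM, 0.67, limma adjusted p = 0.0362), and the most abundant, CHMP3, had 77.4 ± 8.42, 88.8 ± 8.65 and 88.8 ± 13.8 TPM. Of the abscission list, 0 genes rose when any newborn library, day 7 replicate 5 or 6, or day 15 replicate 6 was left out, and 1 rose and 3 fell after median-of-ratios scaling.

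Counts for division genes outside cytokinesis follow, to be read beside the 7.67% of all genes that rose to day 7 and the 8.88% that fell. Of the 17 mitosis genes 9 rose and 0 fell to day 7 (median 1.11), including BUB1B, a spindle checkpoint kinase (1.75), and CENPF, a kinetochore protein (1.40). Of 19 DNA replication genes 15 rose and 0 fell (median 1.11). The mitosis list had 2 rises without newborn replicate 4, 2 without replicate 6, 4 without day 7 replicate 2 or 6, and 16 without newborn replicate 5. The replication list had 7 without newborn replicate 4, 4 without replicate 6 and 9 without day 7 replicate 2, but 18 when newborn replicate 5 was the one left out. Among 18 tested transcription regulators of division, 7 rose and 2 fell. E2F1, an activator of S phase genes, averaged 6.14 ± 4.65 TPM in newborns and 21.2 ± 3.63 TPM on day 7 (1.82, limma adjusted p = 0.00847). E2F8, a repressor linked to polyploidy, averaged 1.23 ± 1.07 and 4.29 ± 1.00 TPM (1.33). Those that fell were E2F4 (-0.76) and E2F6 (-1.03), named after their values were seen. The number called, 9 in all, was 3 when newborn replicate 4 was left out, 1 when newborn replicate 6 was and 6 when day 7 replicate 6 was, and without newborn replicate 5 there were 8 rises and 2 falls.

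Of 8 genes tied in other work to binucleation or polyploidy of heart muscle cells, 1 rose and 1 fell to day 7 (1 and 2 without newborn replicate 5), where 7.67% and 8.88% of all genes did. TNNI3K, a heart muscle kinase linked to the number of nuclei, rose from 42.1 ± 15.3 to 87.3 ± 12.9 TPM (1.08, limma adjusted p = 0.0147). CDKN1A, which encodes the cell cycle brake p21, averaged 37.5 ± 7.62 TPM in newborns, fell to 17.6 ± 7.50 TPM on day 7 (-1.13, limma adjusted p = 0.0353) and averaged 41.4 ± 13.1 TPM on day 15. Of this list 0 genes were called when newborn replicate 4 or 6 or day 7 replicate 6 was left out. The most abundant, CCNG1, had 167 ± 32.2, 138 ± 22.0 and 169 ± 72.2 TPM. From day 0 to day 15, TNNI3K rose (0.81, limma adjusted p = 0.032), while LMNB2, a nuclear lamin (-1.35, limma adjusted p = 0.00149), and LATS1, a kinase of the Hippo pathway (-0.87, limma adjusted p = 0.0304), fell. Over the same span 5.53% of all genes rose and 18.4% fell, an excess of falls that depends on the scaling. The 1 rise and 2 falls among 8 genes are close to those shares. No gene of the list rose over that span when newborn replicate 4 or 6 or day 15 replicate 2 or 6 was left out, and 1 rather than 2 fell without newborn replicate 4 or 6 or day 15 replicate 1 or 6.

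**Figure D5:**
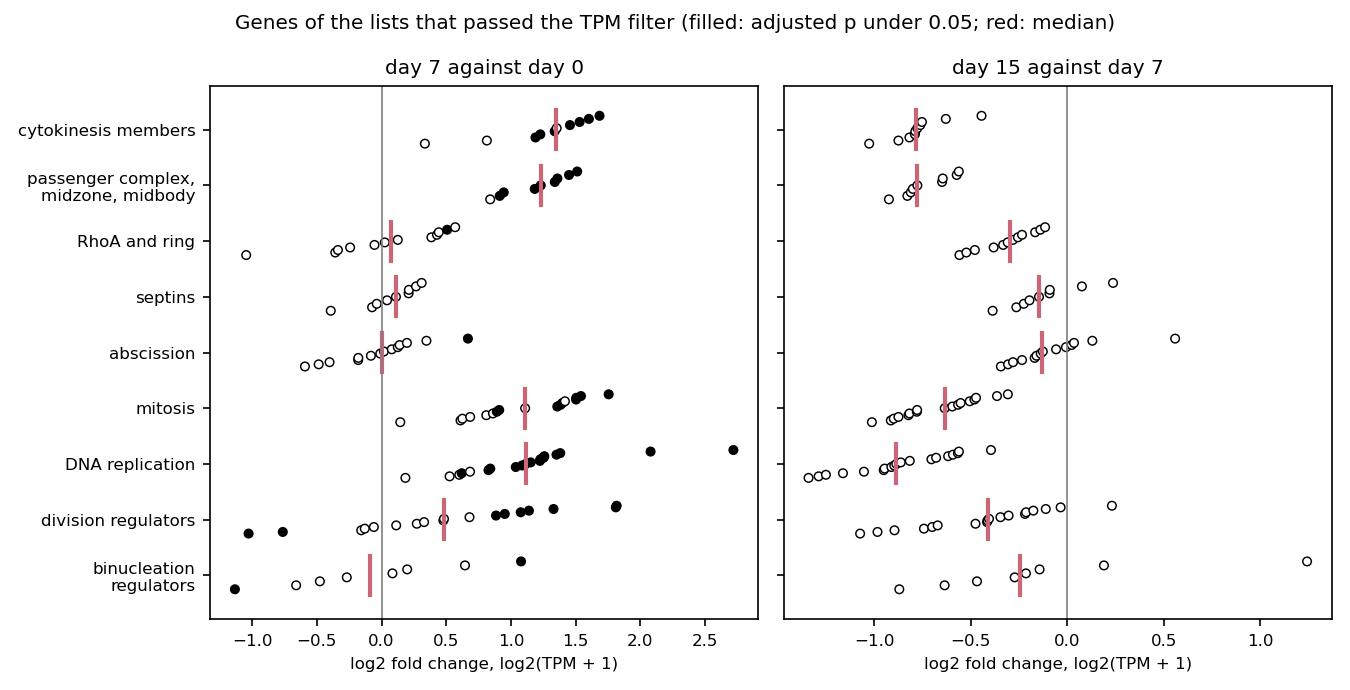
Log2 fold change (horizontal axis) of every tested gene of each list, day 7 against day 0 (left) and day 15 against day 7 (right); filled points passed a limma adjusted p of 0.05 and the red line is the median of the list. In the left panel the medians are 1.35 for the 10 cytokinesis genes, 1.23 for the midzone list, 1.11 for mitosis and replication, 0.08 for RhoA and the ring, 0.11 for septins and 0.00 for abscission.

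Markers of other cell types are given because a ventricle holds many non-muscle cells that can divide. The 9 endothelial markers in the table summed to 307 to 365 TPM at day 0, 409.7 to 495 TPM at day 7 and 303 to 335 TPM at day 15, highest at day 7 with no overlap with the other ages. Of these 9, CDH5 (0.94) and PECAM1 (0.67) rose to day 7 and EMCN (-0.80) fell, where 7.67% of all genes rose and 8.88% fell. Leaving out newborn replicate 4 or 6 or day 7 replicate 2 or 6 left 1 rise and 0 falls. Leaving out day 15 replicate 6 left 2 and 0, and without newborn replicate 5 the counts were 2 and 1. The 10 fibroblast markers summed to 956 to 1481 TPM, 1688 to 2328 TPM and 1251 to 1542 TPM at days 0, 7 and 15, again highest at day 7. COL1A1, COL1A2, COL3A1 and DCN made up most of that sum in every library. At day 7, 3 of the 10 had risen (COL3A1, POSTN and PI16), against 7.67% of all genes. PDGFRA, TCF21 and LUM had not (0.07, -0.14 and -0.22). The 3 rises became 0 without newborn replicate 4 or 6 and 1 without day 7 replicate 5 or 6. They became 2 without day 7 replicate 2 or day 15 replicate 6, and 4 without newborn replicate 5. The sums of the 8 heart muscle markers overlapped between all ages. The 10 mural markers summed to 492 to 705, 366 to 475 and 304 to 331 TPM. The 6 adipocyte markers summed to 223 to 302 TPM at day 0, 61.6 to 127 TPM at day 7 and 164 to 190.2 TPM at day 15. The 5 Schwann cell markers summed to 9.61 to 19.2, 0.959 to 7.38 and 2.65 to 5.18 TPM, and the 6 neutrophil markers to 3.76 to 8.53, 0.777 to 1.35 and 1.40 to 1.90 TPM. Mural, adipocyte, Schwann cell and neutrophil sums were thus higher in every newborn library than in any older one, while the 4 epicardial markers overlapped. The adipocyte sum was mostly FABP4, at 293 of 299 TPM in newborn replicate 5. ADIPOQ had 1.65, 0.151 and 13.5 TPM in newborn replicates 4, 5 and 6. Not all mural markers followed their sum: to day 7 ABCC9 rose (0.94) while ACTA2 and TAGLN fell. Without newborn replicate 5 the mural counts were 1 rise and 1 fall. None of these lists had a marker at 0 in every library.

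Of the red cell lineage, 8 markers were in the table. Their sum was 1267 TPM in newborn replicate 5, against 525 and 395 TPM in replicates 4 and 6, so it was high in the same library as the members. It was 1219, 858 and 555 TPM in day 7 replicates 2, 5 and 6 and 435 to 660.4 TPM at day 15, so the ages overlapped. KLF1 and GATA1, transcription factors that define red cell precursors, stood at 0 and 0.0698 TPM in newborn replicate 5 and reached no more than 0.0382 and 0.127 TPM in any library. ALAS2 had 4.08, 11.1 and 3.34 TPM and HBM 3.05, 6.65 and 2.29 TPM in newborn replicates 4, 5 and 6. Among newborns HBB and GYPC were also highest in replicate 5, while AHSP and SLC4A1 were not. The lymphoid markers summed to 9.67 to 12.8, 11.3 to 32.0 and 10.4 to 74.4 TPM at the 3 ages and the macrophage markers to 70.7 to 86.0, 74.9 to 129.5 and 65.7 to 283 TPM, with day 15 replicate 2 the highest for both. The part of RNA from these cell types in the members' course was not tested.

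By a fixed rule, the 5 genes whose log2(TPM + 1) over the 9 libraries was most like the mean profile of the 10 members were named. The candidates were 7113 tested genes with a symbol and at least 5 TPM on average. Genes of the midzone, mitosis, replication and division regulator lists were left out beforehand, as were the members. They were ASF1B, a histone chaperone (Pearson correlation 0.987), DUT, the enzyme that clears dUTP (0.985), CENPT, a kinetochore protein (0.982), STMN1, a microtubule destabiliser (0.98), and TUBG1, a tubulin of the centrosome (0.977). STMN1 had 30.5, 134 and 34.7 TPM in newborn replicates 4, 5 and 6, 196, 175 and 149.6 TPM at day 7, and 72.8, 102 and 97.0 TPM at day 15. These correlations describe libraries that fall into 3 age groups and carry no test.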

How the data were processed

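Messenger RNA of frozen left ventricular tissue was sequenced with a strand-marking kit, per the labels. The authors deposited TPM values per gene and library, and all 9 columns were used. Per the submitters' processing notes, the tools were HISAT2 2.0.5, Trimmomatic 0.33 and kallisto 0.43.1, whose roles the notes do not state. No source used here gives the genome build, the annotation or the use of strand, so no coordinates are printed. Rows named by Ensembl identifier took a symbol from a table of gene names where that symbol had no row (889 rows, PRC1 among them). Promoter and protein sequences were not used here, so the motif search that was planned was not run.

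Genes with at least 1 TPM in at least 3 libraries (12268) were taken to log2(TPM + 1) and fitted with limma 3.58.1 in R 4.3.3, with 1 mean per age, a mean-variance trend and 6 residual degrees of freedom. P-values were adjusted over all genes tested by the Benjamini-Hochberg method, and "rose", "fell" and "called" mean an adjusted p under 0.05. Exact permutation of 3 against 3 libraries cannot go below 0.1, so it was not used for single genes. The limma step was tested on simulated data.

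The members and the gene lists were chosen with earlier results of these data known, so lists are described by counts and medians only. Named genes are the 10 members, up to 4 called genes and the most abundant gene of each list, of which the text gives a part. The 5 genes of most similar profile outside the lists of division genes are named too. The alternatives were other pseudocounts, filters and scalings, other limma settings, a replicate block and leaving out each library.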

Additional observations from a re-analysis of the deposited data

Results flagged for a closer look

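For CIT and KIF14 the change of the first week differed from that of the second, by a test of that difference over all 9 libraries. The difference was 1.94 for CIT (limma adjusted p = 0.0252) and 2.11 for KIF14 (limma adjusted p = 0.0261) on the log2(TPM + 1) scale. Of all genes, 1.53% passed with a positive sign. CIT passed in 14 and KIF14 in 11 of the 19 alternative analyses in which they were tested. With the replicate block both missed the threshold (limma adjusted p = 0.0908 and 0.0971). CIT and KIF14 moved up in the first week and had lower values in the second in each pair of libraries of neighbouring ages. Of all genes, 17.6% were higher in every such pair of the first week, and 17.9% lower in every pair of the second. Both genes reached 1 TPM in 5 libraries, none newborn, so they entered the test only through the older ages at which they were high, and 0 of the other 8 cytokinesis genes passed this test (limma; all 8 at an unadjusted p under 0.05). Both weeks share the day 7 libraries. No library could be tested as an outlier within its age, since 3 libraries are too few.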

How the results depend on the processing

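No member changed direction in any comparison under any of the 21 alternatives in which it was tested. The first week had 9 calls under median-of-ratios scaling, quantile normalization and TPM rescaled without mitochondrial and the 20 most abundant genes, and had 3 without a filter, 4 with a mean of at least 5 TPM (5 members tested) and 4 with the replicate block. Rises over all genes in these settings were 1909, 1591, 2355, 584, 555 and 325 in the same order, against 941 in the main fit. Rescaling moved the median of all genes to 0.11. For day 15 against day 7 library weights gave 3, all lower, where 8.90% of all genes fell. For day 15 against day 0 the count was 1 with a pseudocount of 5, a mean of at least 5 TPM, quantile normalization or only the 2 ages compared, 0 without a filter or with the replicate block, and 10 with library weights, which called 43.0% of all genes. CIT and KIF14 were also called, both higher, after median-of-ratios scaling and after rescaling. Genes called in these settings ran from 919 (replicate block) to 5272 (library weights), against 2933 in the main fit. For the first step minus the second the count of members was 1 with a pseudocount of 0.1 or no filter, 0 with a mean of at least 5 TPM or the replicate block, 4 after rescaling and 8 with library weights. Positive calls over all genes were 111, 37, 71, 13, 492 and 839 in the same order, against 188 in the main fit. The F test called 4 without a filter, with a mean of at least 5 TPM or with a robust fit, and 2 with the replicate block. Of all genes it called 1822, 2127, 2670 and 807 in the same order, against 2705 in the main fit. Leaving out 1 library gave 3 to 9 calls in the first week, 0 to 7 for day 15 against day 0, 0 to 9 for the difference of steps and 2 to 10 for the F test, with no calls for day 15 against day 7. The same fits called 392 to 2688, 816 to 3266, 3 to 734, 456 to 3175 and 0 to 52 of all genes, in that order. The cause was not tested. Counting by symbol only, without PRC1, was chosen after the data were seen and gave 7, 0, 2, 2 and 7. Over all genes, the first week had 2031 calls, with a range from 392 (without newborn replicate 6) to 3788 (median-of-ratios scaling), and the second week 21, with a range from 0 (without day 7 replicate 2 or 6, or day 15 replicate 6) to 1324 (library weights). Median-of-ratios scaling gave 1909 rises and 1879 falls in the first week in place of 941 and 1090. Replicate numbers were not taken as pairs in the main fit. Deviations from the age means correlated at -0.213 to 0.17 over the 5 pairs that share a number. Pairs with different numbers ran from -0.335 to 0.372. With 3 libraries per age the deviations within an age sum to 0, so this cannot exclude pairing. The replicate block leaves fewer degrees of freedom. Sequencing depth is unknown, so the precision of values under 1 TPM, as for CIT and KIF14 at day 0, cannot be given.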
